A study of Mus musculus with 19 samples.

Results

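The genes described here are 7 carriers of organic ions across the membrane of the liver cell, Slc22a7, Slc22a27, Slc22a28, Slc22a30, Slco1a4, Slco1b2 and Slco2b1. They were listed by name and chosen on their read counts in these same tumours, out of 39179 genes in the table, so their levels are given as a description and were not tested. Polyadenylated RNA was sequenced from liver tumours of male mice carrying 1 mutant Ctnnb1 allele, Ctnnb1tm1Mmt (HET), and both copies of a human MYC transgene at the Rosa26 locus, Gt(ROSA)26Sor tm1(MYC)Djmy (HOM). Adult mice received AAV8.TBG.PI.Cre, a virus in which the hepatocyte promoter TBG drives Cre recombinase, at 640000000 genome copies per mouse, so that Cre acted in a minority of hepatocytes and tumours grew from these clones until end stage. The labels list 13 tumours, 3 control livers given the same dose and 3 control livers given 200000000000 genome copies. The 10 tumours numbered 04 to 13 could be matched to a column of counts, and no control column could, so no comparison with control liver was made.

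The column names carry a tag whose first part divides the tumours into the families RMH4 (tumours 04, 05 and 06), RMH18 (07 and 08) and RMH35 (09 to 13). There are 5 different tags, RMH4_5b for tumour 04, RMH4_5c for 05 and 06, RMH18_1d for 07 and 08, RMH35_1b for 09 and 10 and RMH35_1c for 11, 12 and 13. The meaning of the tag is not given in the labels. Should a tag name an animal, tumours that share it are not independent, and p-values over tumours are then too small.

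The SLC22 family holds transporters of organic cations and organic anions, and the SLCO family holds the organic anion transporting polypeptides (OATPs), which take up bile acids, bilirubin, steroid conjugates, thyroid hormones and many drugs without sodium. In the hepatocyte most of them sit in the basolateral membrane, facing the blood, and bring in compounds that are then metabolised or passed to the bile by ATP-driven export pumps. Their genes lie in clusters of duplicated copies in rodents, and several are found in rodents alone.

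On the genome build GRCm38.p6, Slc22a27 (ENSMUSG00000067656, chr19:7864388-7966517), Slc22a28 (ENSMUSG00000063590, chr19:8061958-8131982) and Slc22a30 (ENSMUSG00000052562, chr19:8335371-8405111) all lay on the minus strand within 541 kb, with 1 other coding gene of the family, Slc22a29, between them. Slco1b2 (ENSMUSG00000030236, chr6:141629452-141686646, plus strand) and Slco1a4 (ENSMUSG00000030237, chr6:141805438-141856284, minus strand) lay within 227 kb, with Gm5724 between them. Slco2b1 (ENSMUSG00000030737) was at chr7:99657804-99711340 on the minus strand and Slc22a7 (ENSMUSG00000067144) at chr17:46432185-46438477. Values refer to whole genes, since the table counts reads per gene and not per exon or transcript.

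Slc22a28 and Slc22a30 are near copies of each other, and their promoters are shown beside their levels below, at a mean of 0.103 CPM for Slc22a28 and 8.03 CPM for Slc22a30. Each promoter runs from 250 bases before to 50 bases after a transcript start, which is the outer end of the gene for Slc22a28 and lies 6 bases inside it for Slc22a30, and is given 5′ to 3′ on the minus strand, from RefSeq on GRCm38.p6. Capitals mark the bases that differ from the other promoter or that, because of this offset, have no base opposite them at the ends.
Slc22a28 (chr19:8131933-8132232): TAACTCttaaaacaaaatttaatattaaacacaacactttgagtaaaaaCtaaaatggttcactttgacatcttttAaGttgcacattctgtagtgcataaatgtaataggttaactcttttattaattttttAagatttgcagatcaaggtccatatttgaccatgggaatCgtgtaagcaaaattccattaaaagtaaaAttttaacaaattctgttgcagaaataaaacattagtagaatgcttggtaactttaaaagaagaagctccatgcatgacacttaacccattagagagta
Slc22a30 (chr19:8405056-8405355): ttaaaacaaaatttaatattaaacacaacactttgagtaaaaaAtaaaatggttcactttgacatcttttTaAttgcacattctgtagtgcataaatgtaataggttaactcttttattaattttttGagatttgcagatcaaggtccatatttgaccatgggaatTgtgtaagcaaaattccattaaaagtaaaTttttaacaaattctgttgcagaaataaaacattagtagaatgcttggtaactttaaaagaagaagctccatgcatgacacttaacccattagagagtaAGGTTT

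The alignment of these promoters held 288 identical bases, 6 mismatches and, from the offset of the windows, 12 gap positions, which is an identity of 94.1%. All other pairs of member promoters, including the 3 start sites of Slco2b1, were between 41.9% and 50.9% identical. Some of these windows lie wholly inside the annotated gene and not upstream of it. The start used lies 490 bases inside the gene for Slc22a27. For the second and the third start of Slco2b1 it lies 4498 and 15531 bases inside. A search by symbol in the RefSeq promoters used here found 6 of the 7 genes. It found none for Slc22a7, although RefSeq gives coordinates for this gene.

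The promoter of Slco1b2 is shown because this gene had by far the highest level and because it held a match to each of 3 motifs of liver factors. The motifs searched on both strands were TTCNNNGAA for STAT factors, GTTAAT for part of an HNF1 site and AGGTCA for nuclear receptors, and capitals mark the matches.
Slco1b2 (chr6:141629268-141629567, plus strand): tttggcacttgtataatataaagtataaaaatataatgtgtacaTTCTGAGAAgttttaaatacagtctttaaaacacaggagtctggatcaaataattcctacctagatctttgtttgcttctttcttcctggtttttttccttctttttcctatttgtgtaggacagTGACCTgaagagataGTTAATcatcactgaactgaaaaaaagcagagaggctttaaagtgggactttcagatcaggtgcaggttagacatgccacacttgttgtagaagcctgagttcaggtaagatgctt

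Among 32851 promoters of the same length, 8.30% held TTCNNNGAA, 7.10% held GTTAAT and 16.3% held AGGTCA. The Slc22a27 window, which lies inside the gene, held 1 match to AGGTCA. The windows of the second and the third start site of Slco2b1, also inside the gene, each held 1 match to TTCNNNGAA. The promoters of Slc22a28, Slc22a30 and Slco1a4 held none of the 3. A match in these windows describes the letters alone, since no binding was measured.

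Total counts per tumour ranged from 11687034 to 36964427, with a median of 16664597. Before scaling, 3 counts corresponded to between 0.0812 and 0.257 per 1000000 counts of the tumour. Levels are given as CPM, the count of a gene per 1000000 counts of the tumour after scaling. The summed level of the 6 hepatocyte markers was 21236 to 34216 CPM and the marker albumin (Alb) alone ranged from 13017 to 22990 CPM, while Cps1, the first enzyme of the urea cycle, ranged from 4.53 to 218 CPM and Serpina1c from 0.893 to 121 CPM. RNAs that lack a poly(A) tail, measured as the sum of Rpph1 and Rmrp, were at 45.1 to 77.4 CPM in tumours 05, 06 and 07 and at 1.53 to 6.44 CPM in the other 7. Tumour 07 also stood apart in markers of other cell types, with the 5 erythroid markers summing to 6178 CPM (101 to 1767 CPM in the other 9), the 6 endothelial markers to 319 CPM, the highest of 10, and the part of this in the extreme values of that tumour given here was not tested.

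The members spanned several orders of magnitude, and each is compared with the others per kilobase (kb) of merged exons, since longer genes collect more reads. The order of the mean levels was Slco1b2 at 193 ± 70.2 CPM per kb (SD, n = 10 here and in the rest of this paragraph), Slco1a4 at 6.62 ± 3.21, Slco2b1 at 5.19 ± 2.41, Slc22a30 at 2.20 ± 2.14, Slc22a7 at 0.828 ± 1.21, Slc22a27 at 0.465 ± 0.363 and Slc22a28 at 0.0252 ± 0.0291 CPM per kb. Slco1b2 was 29.2 times the mean level of Slco1a4 per kb, lay above it in 10 of 10 tumours and was the only member whose range did not overlap that of the next. Slco1a4 lay above Slco2b1 in 6 of 10 tumours, and Slc22a7 above Slc22a27 in 7 of 10, so that the members of each of these pairs did not differ beyond their spread. Slco2b1 lay above Slc22a30 in 9 tumours and Slc22a30 above Slc22a7 in 9. The 3 OATP genes thus stood above the 4 members of the organic anion transporter family by their means per kb.

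**Figure D1:**
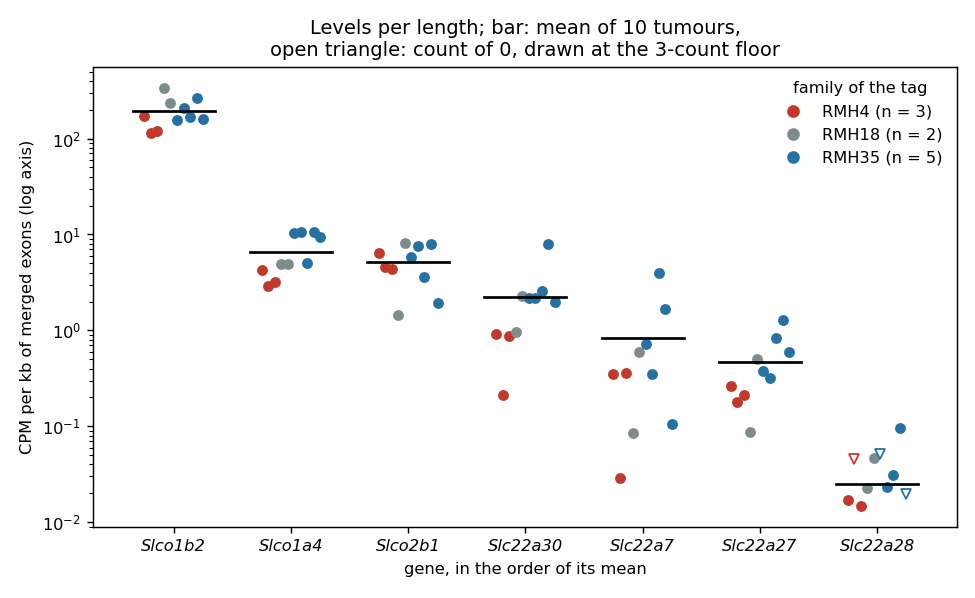
Each point is 1 tumour, coloured by the family of its tag, and gives CPM per kb of merged exons on a log axis. Genes are in the order of their means (bars, 10 tumours). Counts of 0 are drawn as open triangles at the level of 3 counts before scaling. Slco1b2 stands alone at a mean of 193 CPM per kb, and the ranges of all other neighbours in the order overlap.

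Slco1b2 encodes Oatp1b2, the liver-specific carrier of unconjugated bile acids, bilirubin and many drugs and the mouse counterpart of the human OATP1B proteins. Its level was 1098, 727 and 767 CPM in tumours 04, 05 and 06, 2192 and 1513 CPM in tumours 07 and 08, and 1002, 1340, 1074, 1700 and 1023 CPM in tumours 09 to 13. The highest values were in tumours 07 and 12 and the lowest in 05 and 06, and the RMH4 and RMH35 values overlapped through tumour 04. It was the steadiest member, at 1244 ± 452 CPM (SD, n = 10), with a range of 3.01-fold. Its SD on the log2 scale was 0.50, which was larger than that of 75.2% of 12462 genes expressed in these tumours, whose median SD was 0.33. This rank is a description only, since the members were chosen on these counts.

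Slco1a4 encodes Oatp1a4, an uptake carrier of bile acids, steroid conjugates and cardiac glycosides found at the hepatocyte and at the blood-brain barrier. Its level was 36.5, 24.9 and 27.0 CPM in the RMH4 tumours 04 to 06, 41.6 and 42.2 CPM in the RMH18 tumours, and 88.6, 90.8, 42.4, 89.4 and 79.9 CPM in the RMH35 tumours 09 to 13. Tumours 09, 10, 12 and 13 stood high, tumour 11 lay with the RMH18 tumours, and no RMH4 value reached any RMH35 value. Over all tumours the level was 56.3 ± 27.3 CPM (SD, n = 10) with a 3.65-fold range.

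Slco2b1 encodes Oatp2b1, a carrier of steroid sulfates with wide tissue distribution. Its level was 39.9, 28.8 and 27.5 CPM in tumours 04 to 06, 8.95 and 50.8 CPM in tumours 07 and 08, and 36.002, 47.3, 22.5, 50.1 and 12.2 CPM in tumours 09 to 13. The pattern followed neither family nor tag, since tumours 07 and 08, which share a tag, held the lowest and the highest value. The mean was 32.4 ± 15.0 CPM (SD, n = 10) and the range was 5.67-fold. Of its 36-base stretches, 5.65% also occur in transcripts of Gm15635.

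Slc22a30 encodes an organic anion transporter of the chromosome 19 cluster, whose substrates are little studied. Its level was 3.37, 0.766 and 3.22 CPM in tumours 04 to 06, 3.51 and 8.36 CPM in tumours 07 and 08, and 7.90, 7.84, 9.46, 28.7 and 7.19 CPM in tumours 09 to 13. Tumour 12 stood far above the rest, tumour 05 far below, and the other RMH35 tumours lay close together between 7.19 and 9.46 CPM. The highest value was 37.4 times the lowest (exact 95% interval of the counts 21.3 to 72.7, counting error only), 12.4 times without tumour 12 and 8.90 times without tumour 05. Its SD on the log2 scale, 1.33, was larger than that of 98.2% of the expressed genes. This share was 99.5% for Slc22a7, 95.2% for Slc22a27, 92.0% for Slco2b1 and 88.1% for Slco1a4. Because the members were chosen on these counts, nothing is read from these ranks.

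Slc22a28, its near copy, was at the limit of detection. It had between 0 and 12 counts per tumour, was at 0 in tumours 05, 09 and 13, and had 3 counts or fewer in 8 of 10 tumours. The highest level was 0.395 CPM in tumour 12, the same tumour in which Slc22a30 was highest, and the next was 0.193 CPM in tumour 08. Of the 36-base stretches in its transcripts, which is the length of the reads, 30.8% also occur in Slc22a30 transcripts, and 32.5% of those of Slc22a30 occur in Slc22a28. A read that lies within a shared stretch cannot be assigned to either gene by itself, so both levels are uncertain, and no fold change is given for Slc22a28.

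Slc22a7 encodes the organic anion transporter OAT2 of the basolateral membrane. Its level was 0.772, 0.0638 and 0.790 CPM in tumours 04 to 06, 0.185 and 1.30 CPM in tumours 07 and 08, and 1.58, 0.765, 8.77, 3.69 and 0.230 CPM in tumours 09 to 13. Within the RMH35_1c tag alone the 3 values ran from 0.230 CPM in tumour 13 to 8.77 CPM in tumour 11. The highest value was 137 times the lowest, but the lowest rested on 1 count, which gives an exact 95% interval of 24.3 to 5466 (counting error only). The ratio was 57.8 without tumour 11 and 47.5 without tumour 05.

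Slc22a27 encodes a further organic anion transporter of the chromosome 19 cluster. Its level was 0.842, 0.574 and 0.668 CPM in tumours 04 to 06, 0.277 and 1.59 CPM in tumours 07 and 08, and 1.20, 1.00, 2.65, 4.08 and 1.87 CPM in tumours 09 to 13. The RMH35_1c tumours 11, 12 and 13 stood highest and tumour 07 lowest, with 3 counts. The highest value was 14.7 times the lowest (exact 95% interval 4.93 to 72.5, counting error only), 9.57 times without tumour 12 and 7.11 times without tumour 07. Of its 36-base stretches, 24.4% also occur in transcripts of Slc22a29, a neighbour that was at 0 to 0.491 CPM.

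**Figure D2:**
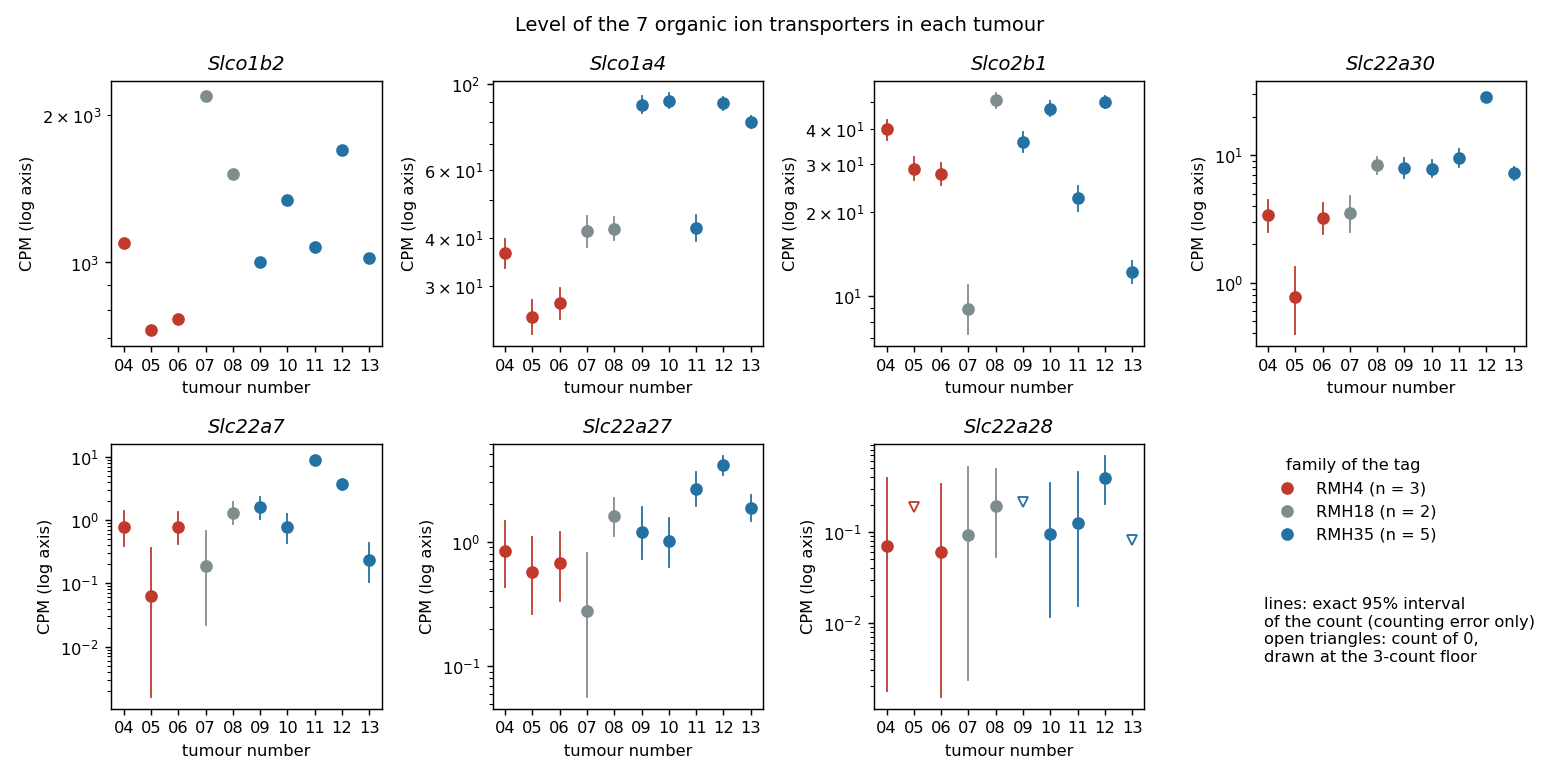
Each panel gives 1 gene in CPM on a log axis of its own for tumours 04 to 13, with vertical lines for the exact 95% interval of the count and colours for the family of the tag. Slc22a30 lies at 0.766 to 3.37 CPM in the red RMH4 tumours and at 7.19 to 28.7 CPM in the blue RMH35 tumours, whereas Slco2b1 mixes the families.

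Across the members, tumour 05 held the lowest value of 5 of 7 and tumour 12 the highest of 3. One of these 5 is Slc22a28, which was at 0 in tumours 09 and 13 as well. Of the 6 hepatocyte markers, 4 (Alb, Ttr, Serpina1c and Cps1) were also lowest in tumour 05 and highest in tumour 12. Tat was lowest in tumour 07 and highest in tumour 12, and Apoa1 was lowest in tumour 09 and highest in tumour 07. The summed level of the 6 was lowest in tumour 05 and highest in tumour 08. Tumour 05 is among the 3 with high Rpph1 and Rmrp, and the part of these values in the pattern was not tested. Of all expressed genes, 15.6% were lowest in tumour 05 and 11.6% were highest in tumour 12. Of the 6 members that passed the filter on low counts, 4 ranged at least 4-fold on the log2 CPM scale (Slc22a7, Slc22a27, Slc22a30 and Slco2b1), and Slc22a28 did not pass it.

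The families were compared next, because the members had been listed together with the tag. In Slc22a30 the mean was 2.45 ± 1.46 CPM in RMH4 (SD, n = 3), 5.93 ± 3.43 CPM in RMH18 (SD, n = 2) and 12.2 ± 9.24 CPM in RMH35 (SD, n = 5). Differences of members between families are given as the RMH4 mean minus the RMH35 mean of log2 CPM with a prior count of 2, and are not the log2 ratio of the mean CPM. For Slc22a30 this was -2.29, which went from -2.63 to -1.63 as each tumour was left out in turn. In Slco1a4 the means were 29.5 ± 6.18 CPM in RMH4, 41.9 ± 0.438 CPM in RMH18 and 78.2 ± 20.4 CPM in RMH35 (SD, same n), a log2 difference of -1.37 with a range of -1.58 to -1.26. In Slc22a27 they were 0.695 ± 0.136, 0.936 ± 0.932 and 2.16 ± 1.25 CPM, a log2 difference of -1.35 with a range of -1.56 to -1.08. These 3 genes were the members in which every RMH4 tumour lay below every RMH35 tumour.

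In the other members the families overlapped. Slc22a7 had means of 0.542 ± 0.414 CPM in RMH4 and 3.01 ± 3.48 CPM in RMH35, and its mean log2 CPM differed by -1.79, with 11 of 15 pairs of tumours in this direction and a range of -2.39 to -0.98 as each tumour was left out, the latter without tumour 05. Slco1b2 differed by -0.50, from 864 CPM in RMH4 to 1228 CPM in RMH35, and was highest in RMH18 at 1853 CPM. Without tumour 04 its RMH4 and RMH35 values did not overlap. Slco2b1 differed by 0.09, and this value turned to between -0.23 and -0.02 without tumour 04, 11 or 13.

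Among 15416 genes tested, every RMH4 value was below every RMH35 value in 4.92% and above in 4.51%, whereas 3 of the 6 members that passed the filter were below and 0 above. Because the members were chosen on these values, the counts are a description and nothing is read from the contrast with the background. Over all genes, the edgeR quasi-likelihood F-test over the 3 families called 5, or 0.0324%, at a Benjamini-Hochberg adjusted p under 0.05, the DESeq2 likelihood ratio test 3.93% and limma-voom 0.0389%. No test result is given for the members, since their counts had served to choose them. The common biological coefficient of variation in the edgeR fit was 0.376.

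Other values also differed between the tumours, and only in part along the families. Tumours 05, 06 and 07, the 3 with high Rpph1 and Rmrp, are 2 of the 3 RMH4 and 1 of the 2 RMH18 tumours. Among the other 7 tumours, where RMH4 has tumour 04 alone, the log2 difference was -1.60 in Slc22a30, -1.05 in Slco1a4, -1.09 in Slc22a27, -0.999 in Slc22a7, -0.13 in Slco1b2, -0.12 in Slc22a28 and 0.42 in Slco2b1, and it rests on 1 RMH4 tumour. The summed level of the 6 endothelial markers, none of them at 0 in any tumour, was 137 to 176 CPM in RMH4, 39.5 to 46.6 CPM in the RMH35 tumours 10 to 13 and 205 CPM in the RMH35 tumour 09. The 6 stellate cell and fibroblast markers likewise summed to 347 to 683 CPM in RMH4, to 186 to 274 CPM in tumours 10 to 13 and to 1324 CPM in tumour 09. Both sums were thus lower than in every RMH4 tumour in 4 of the 5 RMH35 tumours. The 6 macrophage markers summed to 86.5 to 180 CPM in RMH4 and 64.7 to 164 CPM in RMH35, with Marco at 0 in tumour 05. In the RMH4 tumour 05 these markers went in opposite directions. Cd68 was at its highest there, at 68.3 CPM, while Adgre1, Clec4f, Csf1r, Marco and Vsig4 were at their lowest. The 6 cholangiocyte markers summed to 60.2 to 77.9 CPM in RMH4 and 13.7 to 145 CPM in RMH35, with Cftr at 0 in tumours 05 and 07. Their part in the members' differences was not tested, and in bulk RNA fewer cells of a type and less RNA per cell cannot be told apart.

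**Figure D3:**
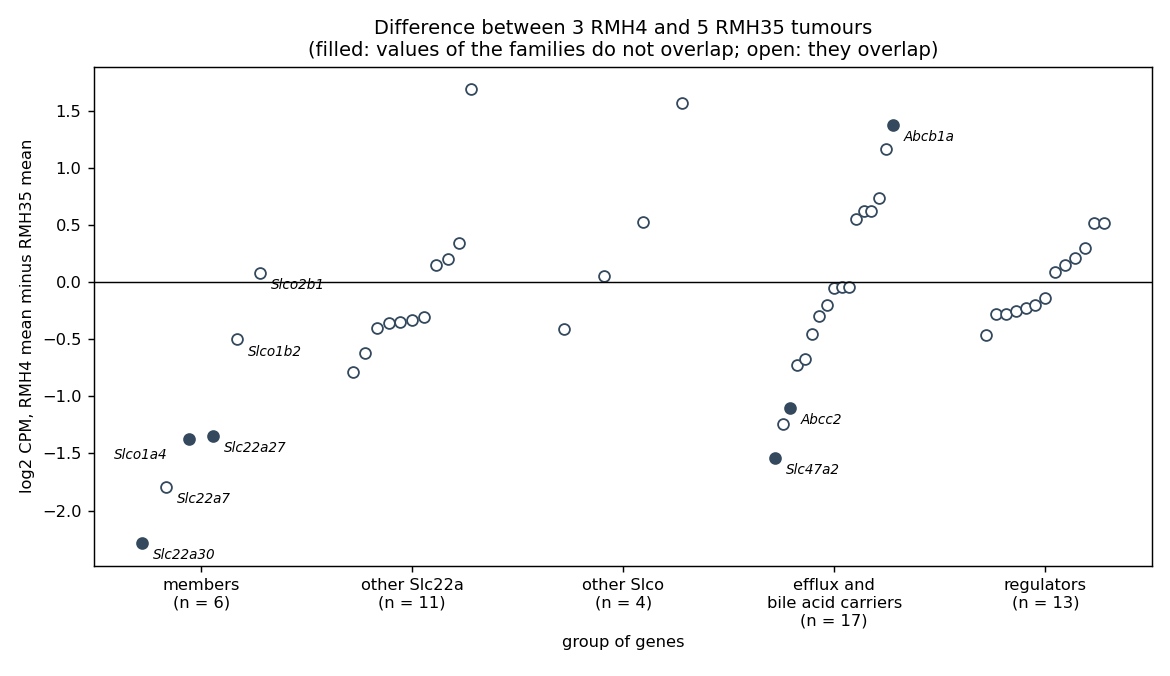
Each point is 1 gene that passed the filter, placed by the difference of mean log2 CPM between 3 RMH4 and 5 RMH35 tumours, for the members, the other transporters of their families, export pumps and bile acid carriers, and regulators. Filled points are genes whose values do not overlap between the families, which are Slc22a30, Slco1a4 and Slc22a27 among the members, Abcc2 and Slc47a2 below 0 and Abcb1a above 0.

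The other transporters of the pathway were taken from lists written by function. Of 51 in the table, 32 were tested between the families and the edgeR quasi-likelihood F-test called 0 at an adjusted p under 0.05, with 5 (15.6%) at an unadjusted p under 0.05, where 2021 of all genes tested (13.1%) were. DESeq2 called 3, Slco1a1, Abcb1a and Abcc2, where it called 601 of 15293 genes in all (3.93%), and limma-voom called 0, with 6 genes in all. Of 21 other Slc22 genes 11 were tested, with a median log2 CPM difference between RMH4 and RMH35 of -0.33, against 0.01 over all genes tested. Of 12 other Slco genes 4 were tested, with a median of 0.29, and of 18 export pumps and bile acid carriers 17 were tested, with a median of -0.05. The 6 members that passed the filter had a median of -1.36, which is not compared with these lists because the members were chosen on these values.

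Among the export pumps, Abcb11, the bile salt export pump, was at 508 ± 150 CPM (SD, n = 10 here and for the next 3 genes), Abcc2, which exports bilirubin conjugates, at 488 ± 173 CPM, Abcb4, the phospholipid floppase, at 450 ± 66.5 CPM, and Abcc6 at 196 ± 50.4 CPM. In Abcc2 every RMH4 value was below every RMH35 value, with a fitted log2 difference of -1.13 ± 0.21 (SE) and an adjusted p of 0.172 in the edgeR F-test. Abcb1a, an efflux pump for many drugs, was the tested transporter without overlap in the opposite direction, with a fitted log2 difference of 1.49 ± 0.30 (SE) and an adjusted p of 0.180 in the same test. Slc47a2 had no overlap either, at 0 to 2.31 CPM. These 3 of 32 transporters without overlap make 9.38%, close to the 9.43% of all genes without overlap in either direction.

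Of 13 transcription factors that regulate hepatic transporters, all were tested and the edgeR F-test called 0, with 1 (7.69%) at an unadjusted p under 0.05, against 13.1% of all genes, and with 0 called by DESeq2 and by limma-voom. Hnf4a, the hepatocyte nuclear factor, was at 746 ± 94.4 CPM and Rxra, the partner of many nuclear receptors, at 569 ± 117 CPM (SD, n = 10). Their fitted log2 differences between RMH4 and RMH35 were -0.22 ± 0.17 and 0.23 ± 0.21 (SE), with adjusted p of 0.754 and 0.533 in the edgeR F-test. The median SD of this list was 0.30 on the log2 scale, compared with 0.39 over all genes tested.

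The members were then compared with each other by their log2 CPM over the 10 tumours, as a description of libraries that share depth, tag and tissue makeup. Of 21 pairs 20 had a positive Pearson's r, from -0.11 for Slco1b2 with Slco2b1 to 0.80 for Slc22a27 with Slc22a30. When the 2 tumours lying farthest from the first gene's median were left out, 5 pairs had a negative r, such as Slc22a27 with Slco2b1 at -0.34. After the family means were removed 2 pairs did. Nothing is read from single pairs with Slc22a28, which had 3 counts or fewer in 8 tumours. The pair of Slc22a27 and Slc22a30 had a Spearman's rho of 0.85 and kept an r of 0.79 without the 2 tumours farthest from the median and of 0.71 after the family means were removed. Slc22a7 with Slc22a30 had an r of 0.74 and a rho of 0.78, with 0.70 without these 2 tumours and 0.69 after removal of the family means. Slc22a30 with Slco1a4 had an r of 0.76 and a rho of 0.76, with 0.63 without these 2 tumours and 0.27 after removal of the family means. The neighbours Slco1a4 and Slco1b2 had an r of 0.39 and a rho of 0.41, with 0.22 without the 2 farthest tumours and 0.44 after removal of the family means.

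**Figure D4:**
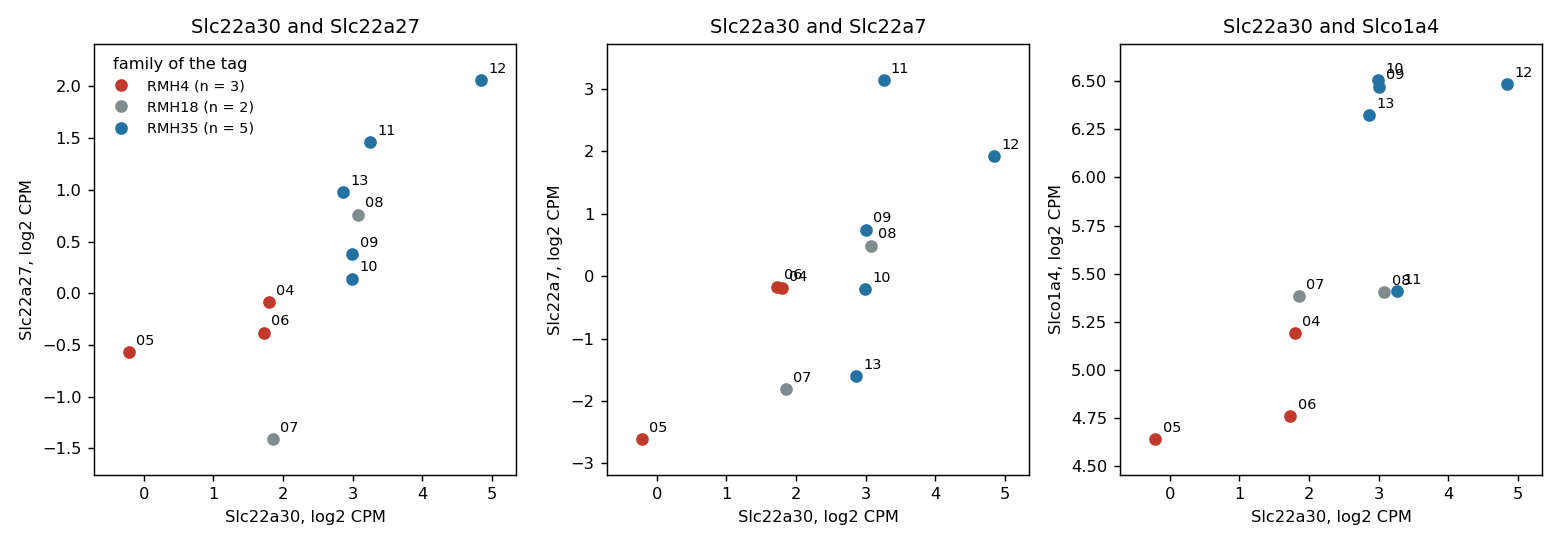
Each point is 1 tumour, numbered and coloured by family, with log2 CPM of Slc22a30 on the x axis and of Slc22a27, Slc22a7 or Slco1a4 on the y axis. Tumour 05 is lowest and tumour 12 highest on the x axis in every panel, and Slco1a4 separates RMH35 tumours 09, 10, 12 and 13 from the rest.

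For each member, the 3 protein-coding genes with the most similar pattern were sought among 11222 by Pearson's r of log2 CPM. With this many genes and 10 tumours, high values arise by the search itself, and they are given with no p. Nearest to Slc22a30 were Rtp3, a liver-enriched protein of the receptor transporter family, with an r of 0.98, Tmem19 with 0.97 and Zfp213 with 0.96. Rtp3 ran from 9.95 CPM in tumour 05 to 49.8 CPM in tumour 12, the same tumours in which Slc22a30 was lowest and highest, and its r stayed at 0.96 or above with any 1 tumour left out.

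Near to Slc22a27 were Pms1, a mismatch repair protein, with an r of 0.96 and Ebp, a sterol isomerase of cholesterol synthesis, with 0.95. F13b, the B chain of coagulation factor XIII, Pkdcc and Zfp963 were nearest to Slc22a7, with r between 0.90 and 0.92. Slco1a4 was nearest to Slc35a5, Pus10 and Tia1, with r between 0.94 and 0.96. Slco1b2 was nearest to Papss2, which makes the sulfate donor of sulfation, with an r of 0.93, to Tspan12 with 0.93 and to the peptidase Dpp4 with 0.92, each of which was highest in tumour 07 as Slco1b2 was. Slco2b1 was nearest to Cul4a, a ubiquitin ligase scaffold, with 0.94, to Rbl2 with 0.93 and to Zkscan1 with 0.92, which were lowest in tumour 07 as Slco2b1 was. For Slc22a28 the search gave Baat, Ttr and Slc25a16 with r between 0.89 and 0.92, but it had 3 counts or fewer in 8 tumours and nothing is read from this pattern.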

How the data were processed

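RNA was measured in mouse liver tumours. The authors deposited 1 table of raw read counts per gene, with 39179 genes, 5 summary lines and 19 columns. The submitters' processing notes name TopHat2, HTSeq and GRCm38, without versions or options. The study's methods name other programs, so whether counting used the strand is not given in the sources used here. The summary line for alignments that were not unique held 45.4% to 57.9% of the column total. Whether this line counts reads or alignments is not given, so it need not be a share of reads. Leaving such reads out can lower the counts of genes with near copies. The line for no feature held 3.60% to 6.97% and the line for ambiguous reads 1.16% to 1.66%. All 5 lines were left out of the totals. A column was used where its number occurs in the title of 1 sample, and 9 columns were not used.

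Symbols and exon lengths came by identifier from GENCODE M39 (GRCm39), with a symbol for 34199 genes (87.3%), and coordinates and promoters from RefSeq (GRCm38.p6). Counts were scaled with TMM in R 4.3.3 with edgeR 4.0.16, and log2 CPM used a prior count of 2. The F-test over families used glmQLFit and glmQLFTest on genes kept by filterByExpr, with Benjamini-Hochberg adjustment. The test was tested on simulated data. DESeq2 1.42.0, limma-voom (limma 3.58.1), other scalings, no filter and leaving out each tumour were alternatives. Intervals and 3-count floors hold for counting error alone, because no molecular identifiers were used and reads may copy 1 molecule. Nothing says that the tumours come from separate animals, so p-values measure only the spread between these samples.

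The members and gene lists were chosen with earlier results of these data known. Genes were named by a rule, namely all members, called genes and the 5 most abundant of the listed transporters, called genes and the 2 most abundant regulators, and the 3 genes most like each member; some genes the rule names are not reported here. Abcb1a, Slc47a2, Slco1a1 and Slc22a29 were named after their values were seen, as were the cell type markers and Rpph1 and Rmrp shown.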

Additional observations from a re-analysis of the deposited data

How the results depend on the processing

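No paired analysis was possible because no column of a control liver could be matched to the labels, and the tumour families share no replicate numbers. The members without overlap between RMH4 and RMH35 stayed at 3 under the other scalings and the other prior count. Leaving out tumours can by construction not lower this number, and gave 3 to 4, with Slco1b2 added without tumour 04. There were 4 members that ranged at least 4-fold under every alternative but library totals, where 5 did. The number of genes called between families was unstable. Beside the main 5 it was 27 with no filter on low counts, 1 with the technical split as a covariate, 0 with tumours of a tag summed, 601 with DESeq2, and 0 to 210 without 1 tumour each, with 0 without tumour 05, 06, 11 or 13, 2 without tumour 10 or 12, 8 without tumour 08, 69 without tumour 04 and 210 without tumour 09. For the listed transporters it was 0, 3 with DESeq2 and 0 to 1 without 1 tumour each, where Abcc2 was called without tumour 09. The cause was not tested. Of the 21 genes most like a member, 5 were also among the nearest 3 by Spearman's rho and 5 to 15 without 1 tumour each. The difference of Slco2b1 reversed to -0.08 without tumour 04, -0.02 without tumour 11 and -0.23 without tumour 13 (range without 1 tumour each -0.23 to 0.27). The precision of Slc22a7, Slc22a27 and Slc22a28 is limited by depth.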
